A study of Mus musculus with 6 samples.

Results

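The feedback inhibitors of growth factor receptors examined here are Spry1, Spry2 and Spry4 of the Sprouty family, Spred1 and Spred2 of the Spred family, and Errfi1, Phlda1, Phlda3 and Lrig1. All probes whose gene symbol in the platform annotation was that of a member were taken. Of the 9 members, 8 had a probe there, with 11 probes among the 45281 on the array, and Spry1 was not analysed here. Transcript levels had been measured on single-colour Illumina beadchips in Mvt-1, a cell line from a mammary tumour of a mouse with Myc and Vegf transgenes, both driven by the MMTV promoter. The 3 insulin arrays held RNA of cells given 10 nM insulin for 90 min, and the 3 vehicle arrays held RNA of control cells, all of the same line. Per the labels' protocols, cells were grown with fetal bovine serum and starved of serum for 16 h before stimulation, so both groups describe a starved culture of 1 cell line. The labels do not state whether replicates were separate cultures. The p-values therefore cover the spread between these 6 samples, and that spread may be technical.

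Receptor tyrosine kinases such as the EGF, FGF and insulin receptors pass signals through RAS to the ERK MAP kinases and through PI3K to AKT. Feedback inhibitors damp these signals, and many of their genes are themselves induced when the pathway is active. Sprouty proteins restrain receptor signalling to RAS and ERK. Spred proteins bring the RAS inactivator neurofibromin to the membrane. Errfi1, also called MIG6, binds and blocks the kinase domain of EGF receptor family members. Lrig1 is a membrane protein that promotes the loss of EGF receptor family members from the cell. Phlda1 and Phlda3 carry a pleckstrin homology domain, and Phlda3 competes with AKT for membrane lipids and is a target of p53.

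Each array detected 17617 to 18232 probes (detection p under 0.05), or 38.9% to 40.3%, and median signals were 76.0 to 77.1, close to background. After normalization every pair of arrays correlated at r = 0.988 or more. As a check of the cell type, the keratin genes Krt8 and Krt18 and the tight junction gene Cldn3 were detected on all 6 arrays. These were 3 of 14 epithelial markers, and Epcam, Krt19, Krt5, Elf5, Esrp1 and Cldn4 were detected on none. Of 20 markers of immune, endothelial, stromal and fat cells with a probe, 4 were detected on all 6 arrays (Acta2, Col3a1, Dcn and Pdgfrb) and 12 on none, among them Ptprc, Pecam1 and Adipoq. Signals summed over these 20 markers were 2403.4 to 2456.6 on insulin arrays and 2432.5 to 2654.9 on vehicle arrays, and over the epithelial markers 3171.2 to 3486.9 on insulin arrays and 3139.6 to 3933.3 on vehicle arrays.

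No member changed past the threshold after 90 min of insulin. In RNA of whole cultures, a change in the number of cells that express a gene and a change in RNA per cell cannot be told apart. Of the 9 members, 7 passed the filter on dim probes and were tested, and 0 of 7 had an adjusted p under 0.05 (limma with Benjamini-Hochberg adjustment over all genes), where 0.464% of all genes did, 44 of 9478. At an unadjusted p under 0.05 in the fit as reported, 0 of 7 members were higher with insulin, where 4.80% of all genes were. At the same cut 0 of 7 were lower, where 6.15% of all genes were. Changes of the tested members ran from -0.23 to 0.21 on the log2 scale, with a median of 0.023 against -0.015 over all genes tested. Of the 7 changes 5 were positive and 2 negative, where 4358 of all 9478 were positive and 5120 negative. The intervals for the fold of insulin over vehicle reached no lower than 0.688 (Phlda3) and no higher than 1.38 (Phlda1) among these 7 (95%, limma). Those of Spry4 and Spred2 rest on signals near background and do not limit the change of their transcripts. The count over all genes depended on single arrays, as it was 12 without vehicle replicate 1, 2 without vehicle replicate 2, 3 without vehicle replicate 3, 6 without insulin replicate 1, 10 without insulin replicate 2 and 68 without insulin replicate 3, while 0 members passed in any of these.

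**Figure D1:**
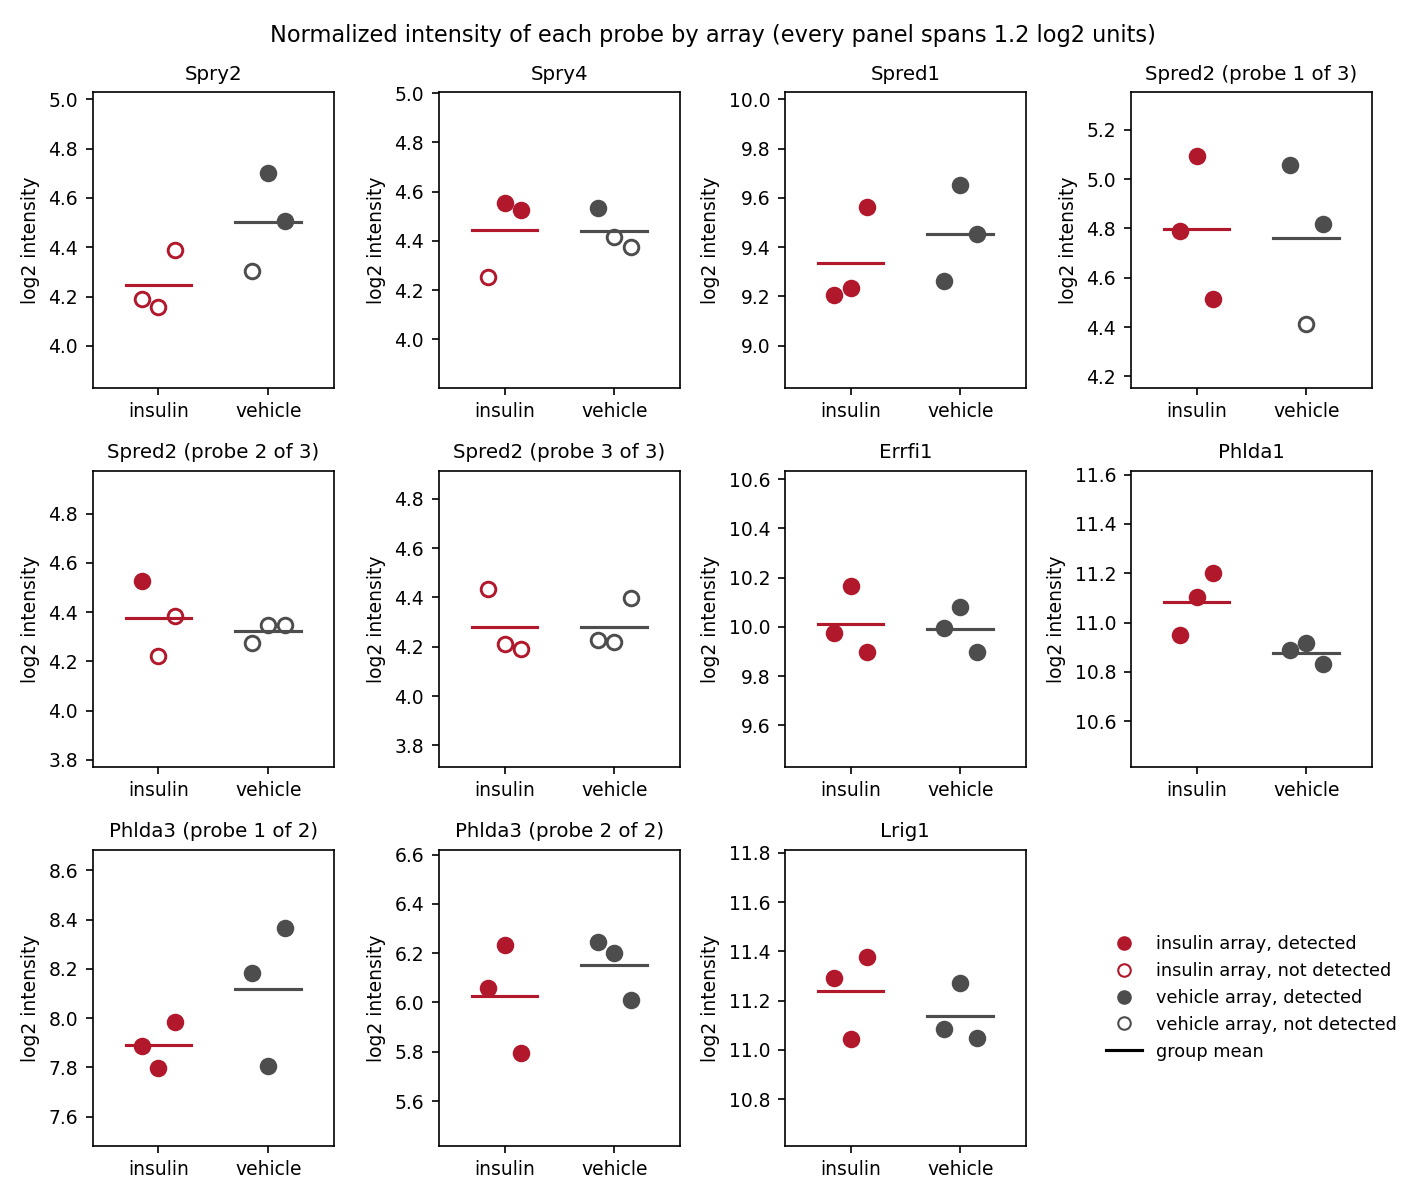
Normalized log2 intensity of each of the 11 probes on the 3 insulin arrays (left in each panel) and the 3 vehicle arrays (right), with filled points where the probe was detected and lines at the group means; every panel spans the same range but starts at its own level. Phlda1 has 3 insulin arrays above the 3 vehicle arrays, and in the other 10 panels the groups overlap.

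Phlda1 was the member with the smallest p. Its normalized log2 intensity was 10.95, 11.10 and 11.20 on the insulin arrays and 10.89, 10.92 and 10.83 on the vehicle arrays. All 3 insulin arrays lay above all 3 vehicle arrays, by a gap smaller than the spread among the insulin arrays. Before normalization the signals of Phlda1 were 1996.9, 2202.6 and 2450.5 with insulin and 2032.2, 1974.0 and 1869.1 with vehicle, and there the groups overlapped. Phlda1 averaged 11.08 ± 0.13 with insulin and 10.88 ± 0.043 with vehicle (SD, n = 3 each), a log2 change of 0.21 ± 0.12 (standard error) with a 95% interval from -0.058 to 0.47. The change did not pass the threshold (limma, Benjamini-Hochberg adjusted p = 0.591). Phlda1 was 1 of 7 tested members whose groups did not overlap, where 15.9% of all 9478 genes had groups that did not overlap, and 6.59% had them with insulin higher. With no filter on dim probes, where the variance estimate differs, the unadjusted p of Phlda1 was 0.0401 and the limma adjusted p 0.552. In that fit 0 of 19057 genes were past the threshold and 1645 at an unadjusted p under 0.05. The unadjusted limma p of Phlda1 was also under 0.05 with normexp correction (0.0426), the deposited processed values (0.0319) and an offset of 50 (0.0468). The limma adjusted p-values there were 0.4325, 0.3945 and 0.4353, so none passed the threshold.

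Phlda3 was read by 2 probes, both detected on all 6 arrays. The brighter probe, which stood for the gene in the test, had log2 intensities of 7.89, 7.80 and 7.98 on the insulin arrays and 8.18, 7.81 and 8.37 on the vehicle arrays. Vehicle replicate 2 lay among the insulin arrays, so the groups overlapped, and the vehicle arrays spread more widely. The log2 change was -0.23 ± 0.15 (95% interval -0.54 to 0.080, limma adjusted p = 0.613). Without vehicle replicate 2 it was -0.39 and without vehicle replicate 3 it was -0.10, and neither value passed the threshold. The dimmer probe of Phlda3 had 6.06, 6.23 and 5.79 on the insulin arrays and 6.24, 6.20 and 6.01 on the vehicle arrays, and its groups overlapped too. Its log2 change was -0.12 ± 0.14 in the fit over all 17482 detected probes (limma adjusted p = 0.830), where 10 probes or 0.0572% passed the threshold. Without insulin replicate 3 the dimmer probe stood at -0.0059.

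Errfi1 had 2 transcription start sites in the RefSeq table on GRCm38.p6, both on the plus strand of chromosome 4. Their promoter windows, 250 bases before to 50 after each start, are shown because the second was the only window of a member to hold any of the motifs searched. In capitals are matches to the cAMP response element TGACGTCA and to the TATA box letters TATAAA.
Errfi1 upstream start, chr4:150853546-150853845: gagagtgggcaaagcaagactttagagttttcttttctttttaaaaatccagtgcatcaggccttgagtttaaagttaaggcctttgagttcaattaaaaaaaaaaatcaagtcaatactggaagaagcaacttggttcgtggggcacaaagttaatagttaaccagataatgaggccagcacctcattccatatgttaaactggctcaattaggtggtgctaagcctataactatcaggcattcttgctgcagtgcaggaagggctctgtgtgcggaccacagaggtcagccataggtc
Errfi1 downstream start, chr4:150854820-150855119: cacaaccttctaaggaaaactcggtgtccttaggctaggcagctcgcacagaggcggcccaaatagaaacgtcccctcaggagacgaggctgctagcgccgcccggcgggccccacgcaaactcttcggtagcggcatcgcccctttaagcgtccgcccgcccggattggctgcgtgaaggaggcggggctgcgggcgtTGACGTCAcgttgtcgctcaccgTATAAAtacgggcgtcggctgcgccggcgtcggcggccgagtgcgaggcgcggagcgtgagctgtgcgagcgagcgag
The response element, whose letters read the same on both strands, began 51 bases before the downstream start. The TATA box letters began 28 bases before that start, on the plus strand. Over all 32851 promoter windows in the table, 1.79% held TGACGTCA and 13.6% held TATAAA on either strand. Windows of 7 of the 9 members were searched, 8 windows in all, and those of Phlda1 and Spry4 were not. Also searched on both strands were TGANTCA (AP-1, in 7.81% of all windows), GTAAACA (FOXO, 3.65%), CACGTG (E-box, 7.15%), GCGGGGGCG (EGR, 2.91%), ACCGGAAGT (ETS, 1.10%), the CArG box (1.63%) and the p53 decamer (8.36%). No match says only that these letters are not in these windows, and the 2 matches do not overlap.

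Errfi1 itself was close to level. Its log2 intensity was 9.98, 10.17 and 9.90 on the insulin arrays and 9.99, 10.08 and 9.90 on the vehicle arrays, on a probe detected on all 6. The groups covered nearly the same range, with replicate 2 the highest and replicate 3 the lowest array of each group. The log2 change was 0.023 ± 0.13, with a 95% interval from -0.25 to 0.29 (limma adjusted p = 0.977), which is a fold between 0.842 and 1.23.

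Lrig1 was detected on all 6 arrays as well, at log2 intensities of 11.29, 11.05 and 11.38 with insulin and 11.09, 11.27 and 11.05 with vehicle. Insulin replicate 2 and vehicle replicate 3 were nearly equal, and the groups overlapped. The log2 change was 0.10 ± 0.13, with a 95% interval from -0.18 to 0.38 (limma adjusted p = 0.840). Of the Lrig1 relatives, Lrig3 had 1 of 3 probes detected on all 6 arrays, whose log2 change was -0.080 ± 0.13 (limma adjusted p = 0.876; -0.020 to -0.19 with 1 array left out), and the 2 probes of Lrig2 were detected on 0 arrays.

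Spred1 had a probe detected on all 6 arrays, with log2 intensities of 9.21, 9.23 and 9.56 on insulin arrays and 9.26, 9.65 and 9.45 on vehicle arrays. Insulin replicate 3 lay among the vehicle arrays and vehicle replicate 1 among the insulin arrays. The log2 change was -0.12 ± 0.14 (95% interval -0.42 to 0.18, limma adjusted p = 0.817). Spred2 had 3 probes, all near background. The brightest was detected on 3 insulin arrays, at signals of 84.8, 93.7 and 81.1, and on 2 vehicle arrays, where the 3 signals were 89.6, 78.6 and 86.2. The lowest of these signals lay near the median signal of an array, and the groups overlapped. Its log2 change was 0.036 ± 0.17 (95% interval -0.33 to 0.40, limma adjusted p = 0.971), and it was -0.14 without vehicle replicate 2 and -0.11 without insulin replicate 2. The other Spred2 probes were detected on 1 and 0 of the 6 arrays and were not tested. The relative Spred3 was detected on 1 array, with signals from 72.7 to 81.2.

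Of the Sprouty members, Spry4 and Spry2 stood at the detection limit, and Spry1 was not analysed here. Spry4 had signals of 74.2, 81.9 and 81.3 on insulin arrays, with 2 of 3 detected, and of 80.3, 78.6 and 78.1 on vehicle arrays, with 1 of 3 detected. It passed the filter with the smallest number of arrays the filter allows, and its log2 change was 0.0037 ± 0.13 (limma adjusted p = 0.997). The 95% interval ran from -0.27 to 0.28, on intensities that were mostly background. Spry2 had signals of 71.9, 71.0 and 78.7 on insulin arrays, with 0 of 3 detected, and of 76.1, 84.0 and 80.6 on vehicle arrays, with 2 of 3 detected. Insulin replicate 3 exceeded vehicle replicate 1, so the groups overlapped. Spry2 missed the filter and was not among the 9478 genes. It averaged 4.25 ± 0.13 with insulin and 4.50 ± 0.20 with vehicle in log2 intensity (SD, n = 3 each), and no fold is given because its probe was not above background on 4 of the 6 arrays. With no filter on dim probes its limma adjusted p was 0.611. Spry3 was detected on 0 arrays, and Phlda2, a relative of the Phlda members, on 1.

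**Figure D2:**
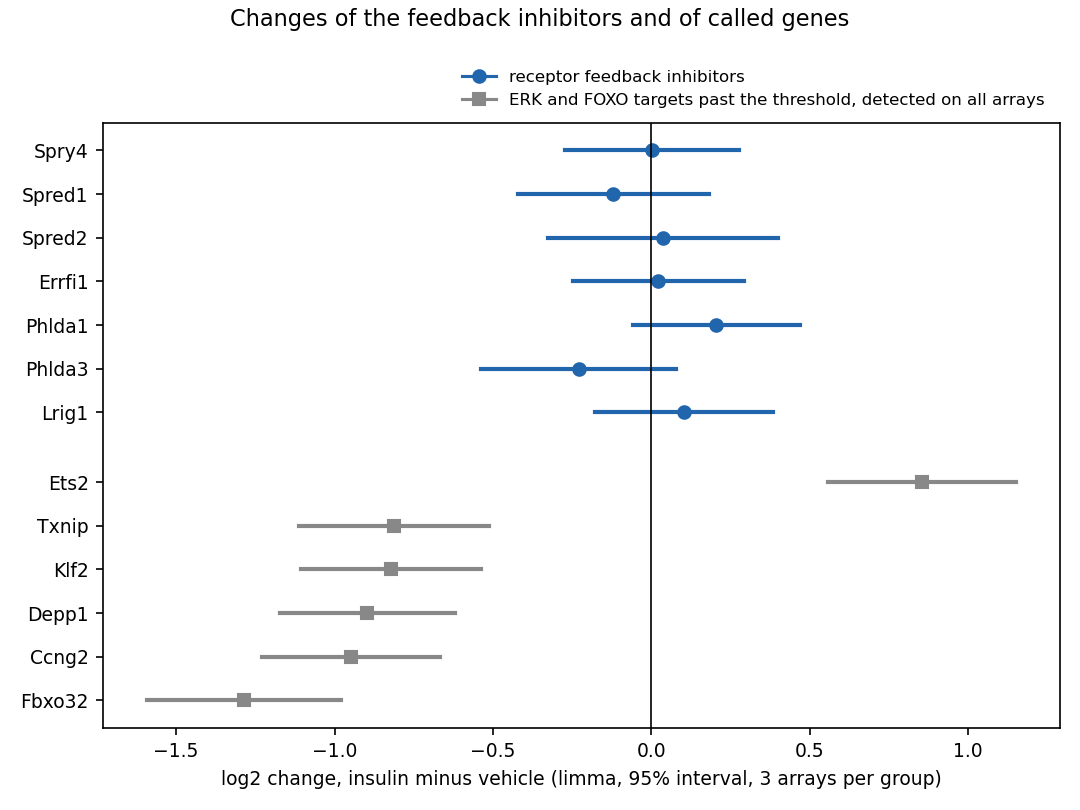
Log2 change of insulin over vehicle with its 95% interval from limma (3 arrays per group) for the 7 tested members (circles, top) and for Ets2, Txnip, Klf2, Depp1, Ccng2 and Fbxo32 (squares, bottom). The intervals of all 7 members cross 0. The 6 other genes were drawn because they passed the threshold in these data and were detected on all arrays. Their intervals were therefore bound to exclude 0 and are shown for scale only.

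The members with bright probes did not share 1 pattern over the arrays. Insulin replicate 3 was the highest insulin array for Phlda1, Lrig1, Spred1 and the brighter Phlda3 probe, but the lowest for Errfi1. Vehicle replicate 2 was the highest vehicle array for Phlda1, Lrig1, Spred1 and Errfi1 and the lowest for the brighter Phlda3 probe. The 5 genes most like Phlda1, by Pearson r of normalized log2 values over the 6 arrays, were Yrdc (r = 0.986), Usp20 (r = 0.981), Sox9 (r = 0.975), Clba1 (r = 0.972) and Tedc1 (r = 0.970). With 6 arrays and 9478 genes such values are a description only. None of these 5 passed the threshold. Yrdc came closest, with a limma adjusted p of 0.117 for a log2 change of 0.69.

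Lists of genes around the members were read in the same arrays to describe how other transcripts moved. The lists were chosen with earlier results of these data known, and they share some genes, among them Hbegf and Insr. Among 43 other inhibitors of receptor, MAP kinase or AKT signalling, 32 were tested and 0 passed in either direction. Their median log2 change was 0.094, against -0.015 over all genes. Of their values 26 were positive and 6 negative, where 4358 of all 9478 genes were positive and 5120 negative. These signs were not tested. Dusp2, a MAP kinase phosphatase, was detected on 3 insulin arrays and 0 vehicle arrays and averaged 4.82 with insulin and 4.41 with vehicle in log2 intensity. It did not pass (limma adjusted p = 0.214), and it entered the test only through the insulin arrays. Its log2 change of 0.40 was 0.28 as the mean of its detected probes and 0.13 with the deposited processed values. The phosphatases Dusp10 and Dusp14 had log2 changes of -0.42 ± 0.15 and 0.31 ± 0.13 that did not pass. Dusp10 stood at -0.24 without insulin replicate 2 and at -0.15 with the deposited processed values, and Dusp14 at 0.17 with those values. Among 26 transcripts known to be raised by ERK, 21 were tested, with a median of 0.077. Past the threshold 1 was higher with insulin and 0 were lower. Of the 21 values 15 were positive and 6 negative, and these signs were not tested either. The 1 that passed was Ets2, a transcription factor, with 0.86 ± 0.14 (limma adjusted p = 0.0164). Its call was lost without vehicle replicate 2 (limma adjusted p = 0.0891), vehicle replicate 3 (0.118), insulin replicate 1 (0.0728) or insulin replicate 2 (0.0714). The immediate early genes Egr1 and Egr2 had log2 changes of 0.53 ± 0.15 and 0.50 ± 0.13 that did not pass, and Egr2 stood at 0.29 with the deposited processed values.

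Of 22 receptor tyrosine kinases 12 were tested and 0 passed, with a median log2 change of -0.082 and the smallest p-values for Insr (-0.40 ± 0.14), Pdgfra (-0.43 ± 0.16) and Met, the receptor of hepatocyte growth factor (-0.28 ± 0.13). Pdgfra stood at -0.26 without vehicle replicate 3, and Met at -0.090 with the deposited processed values. Of 19 ligands 12 were tested and 0 passed, with a median of 0.055. Egf, the ligand of the EGF receptor, was detected on 0 insulin arrays and 3 vehicle arrays and averaged 4.32 with insulin and 4.90 with vehicle in log2 intensity. It did not pass (limma adjusted p = 0.0784), it entered the test only through the vehicle arrays, and its log2 change of -0.57 was -0.20 with the deposited processed values. Vegfa stood at 0.41 ± 0.12 and Hbegf, another EGF receptor ligand, at 0.38 ± 0.14, or 0.20 with the deposited processed values. Of 31 proteins that the members bind or act on, 18 were tested and 0 passed, with a median of 0.0084. Gab1, a docking protein below several receptors, stood at -0.38 ± 0.13 (limma adjusted p = 0.286), Ptpn11, the phosphatase SHP2, 0.21 ± 0.12, and Grb2, an adaptor that recruits SOS, -0.21 ± 0.13, the last of these detected on 1 insulin array and 2 vehicle arrays and at -0.079 with the deposited processed values.

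For Phlda3, which p53 raises, 13 of 18 p53 targets were tested and 0 passed, with a median log2 change of -0.12. Of the 13 values 8 were negative, where 5120 of all 9478 genes tested were negative. Trp53inp1, a stress-induced p53 target, stood at -0.24 ± 0.13, Cdkn1a, the inhibitor of cyclin-dependent kinases p21, at 0.25 ± 0.14 and Sesn2, a sestrin, at 0.35 ± 0.20. Single arrays moved the last 2 of these, as Cdkn1a was 0.12 without insulin replicate 2 and 0.39 without insulin replicate 3, and Sesn2 was 0.078 and 0.59 in the same order. With the deposited processed values Sesn2 was 0.17. Targets of FOXO, the transcription factors that AKT inhibits, were all tested, 16 genes, of which 6 passed the threshold with lower values and 0 rose, with a median log2 change of -0.42. Of these 6, Irs2 entered the test only through the vehicle arrays, and the other 5 were detected on all arrays. This list was chosen with these data known and is not independent evidence of its direction. Among those that fell were Fbxo32, a ubiquitin ligase subunit, at -1.29 ± 0.15 (limma adjusted p = 0.00109), and Ccng2, cyclin G2, at -0.95 ± 0.13. Depp1, an autophagy regulator, fell by 0.90, Klf2, a Krüppel-like factor, by 0.82 and Txnip, which restrains glucose uptake, by 0.81 on the log2 scale. Irs2, an insulin receptor adaptor, was detected on 0 insulin arrays and 3 vehicle arrays and averaged 4.24 with insulin and 4.84 with vehicle in log2 intensity (limma adjusted p = 0.0454). Its log2 change of -0.59 was -0.22 with the deposited processed values, which did not pass. Fbxo32 passed with any 1 of the 6 arrays left out, but its change was smaller with the deposited processed values (-0.64), normexp (-0.74), an offset of 50 (-0.80) or as the mean of its detected probes (-0.75). Ccng2 was likewise at -0.48, -0.56 and -0.60 with the first 3 of these settings, and both genes passed in all of them. Calls of Ccng2 and Depp1 were lost without vehicle replicate 2 (limma adjusted p = 0.0519 for both) or vehicle replicate 3 (0.0655 for both). Klf2 lost its call without vehicle replicate 2 (0.0519), vehicle replicate 3 (0.118), insulin replicate 1 (0.0598) or insulin replicate 2 (0.0714). Txnip lost it without vehicle replicate 1 (0.0677), 2 (0.0734) or 3 (0.121) or without insulin replicate 1 (0.0517), and Irs2 without any 1 of the 6 arrays (0.0797 to 0.161). The difference between the members' changes and those of the FOXO or ERK targets was not tested.

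**Figure D3:**
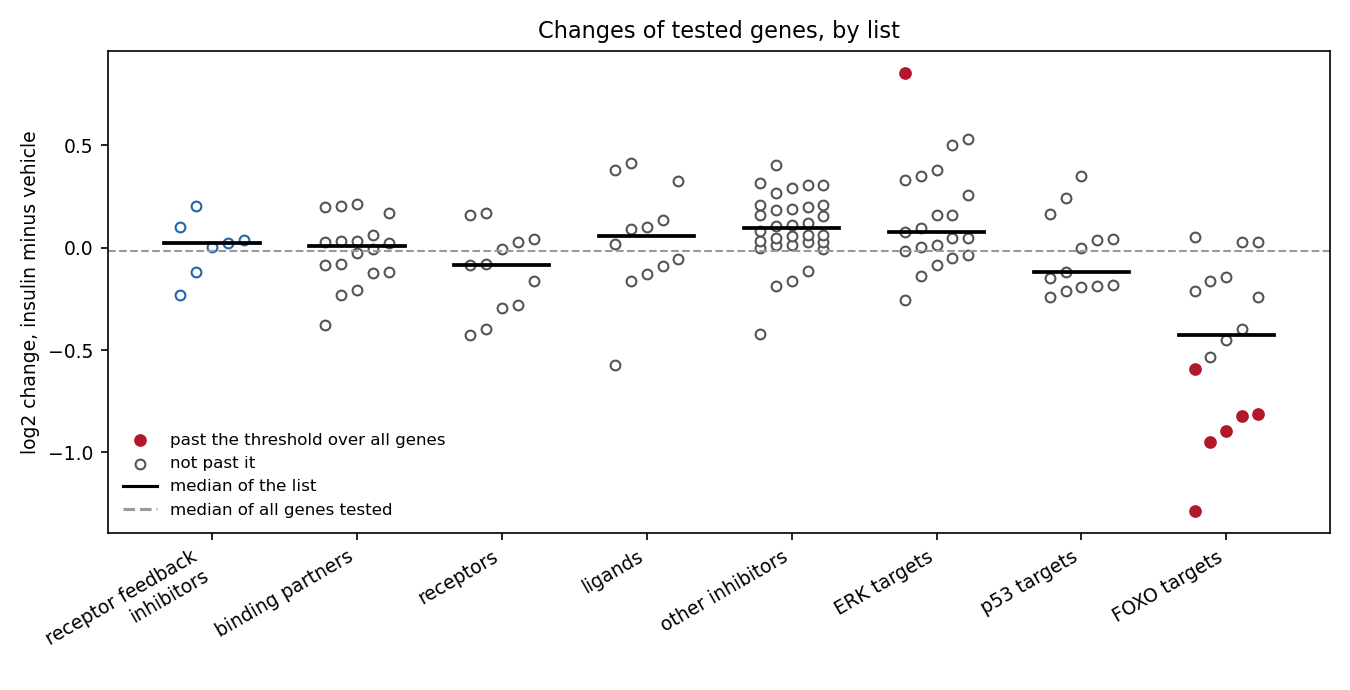
Log2 change of insulin over vehicle for every tested gene of 8 lists, with filled points past the threshold over all genes, a bar at each list's median and a dashed line at the median of all genes tested. All 7 members lie between -0.23 and 0.21, and filled points appear only among the ERK targets (1) and the FOXO targets (6).

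The sizes of the members' changes varied little with the processing and more with the arrays left out. Phlda1 stayed positive (0.15 to 0.27) and Lrig1 stayed positive (0.032 to 0.20) in all 17 alternatives. Phlda3 (-0.39 to -0.10) and Spred1 (-0.24 to -0.021) stayed negative in all 17. Spry4, Spred2 and Errfi1 took both signs, and of 116 values for the 7 members under the alternatives 0 passed the threshold, with a smallest limma adjusted p of 0.332.

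**Figure D4:**
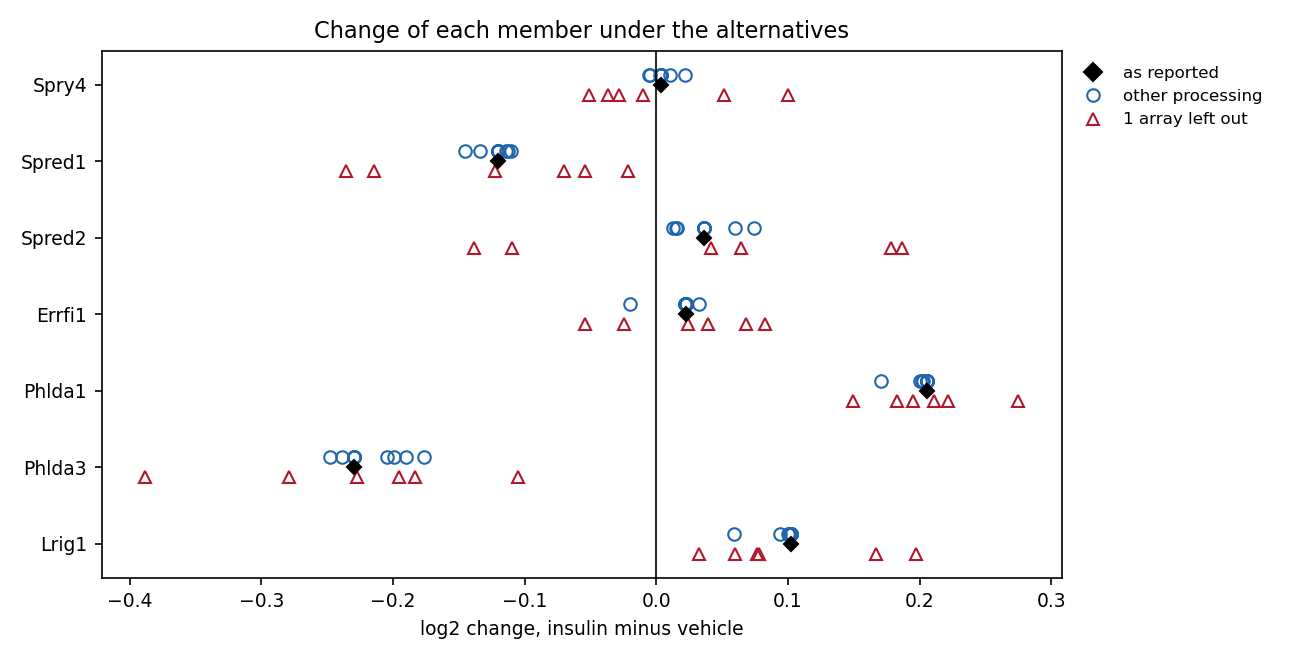
Log2 change of insulin over vehicle for the 7 tested members as reported (diamonds), under other processing (circles) and with 1 array left out (triangles). Phlda1 and Lrig1 stay to the right of 0 and Phlda3 and Spred1 to the left, whereas Spry4, Spred2 and Errfi1 fall on both sides.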

How the data were processed

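RNA of 3 insulin and 3 vehicle samples was amplified, labelled with biotin and hybridized to beadchips, per the labels' protocols. The deposited non-normalized table held a linear intensity for each probe and array, and a detection p-value beside it, per the file headers. The submitters' processing notes name GenomeStudio, and its version and settings are not stated there. The authors' deposited processed intensity values equalled a quantile normalization of these signals to within 3.33e-06.

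Signals were corrected with limma 3.58.1 (neqc, offset 16) in R 4.3.3, quantile normalized and put on a log2 scale. After this correction some dim probes changed more than in the deposited processed values on a log2 scale, as Irs2 did (-0.59 against -0.22). Probes with a detection p under 0.05 on at least 3 of 6 arrays were kept (17482), and for each gene the brightest by mean was tested (9478 genes). Symbols came from the platform annotation, which gave 34885 probes 1 gene, 18 several and 10378 none. RefSeq (GRCm38.p6) changed 0 of them. Slides and scan dates were not analysed here. Groups were compared by limma (two-sided, moderated by eBayes), with p-values adjusted by Benjamini-Hochberg across the whole gene table and a threshold of 0.05. The procedure was run on simulated data whose changes were larger than those of the members. That run does not show whether changes of the members' size would be found. A probe detected on no array of a group has only a bound there. Its means are given, and a log2 change for it, where given, is no measured fold and was smaller with the deposited processed values. The number of arrays limits the precision, as does signal near background for dim probes. Array intensities carry no read depth.

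The members and gene lists were chosen with earlier results of these data known. All members were named, with all family relatives, every list gene past the threshold (at most 6) or else the 3 with the smallest p, the 5 genes most like the member with the smallest p, and cell markers detected on all arrays or on none. Alternatives covered background correction, offset, scaling, filters, probe choice, variance model, array weights, the replicate number as a block and each array left out. Arrays with the same number did not pair by the rule set for it.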

Additional observations from a re-analysis of the deposited data

How the results depend on the processing

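The number of genes past the threshold was 44 as reported, 29 with normexp fitted to the signals, 22 with the deposited processed values and 28 with an offset of 50. It was 0 without the filter on dim probes (limma), where more genes were tested and the variance estimate also differed. The number was 83 with a trended, robust variance and 75 with the replicate block. For single probes it was 10 as reported and 28, 16, 25, 0, 85 and 71 under those settings. With 1 array left out it ran from 2 to 68 for genes and from 0 to 54 for probes, and 0 members passed in any setting. Where a count moved, the cause was not tested. Signs turned only for members near 0, namely Spry4 (-0.0059 with normexp, -0.0045 with the deposited values, -0.051 to 0.10 with 1 array left out), Errfi1 (-0.020 with median scaling, -0.055 to 0.083 with 1 array left out) and Spred2 (-0.14 to 0.19 with 1 array left out). Same-numbered insulin and vehicle arrays had correlated deviations from their group means (r = 0.0901, 0.152 and 0.131), each higher than with any other number, which is a hint from the data and not from the design, and the 3 did not all exceed 0.1. Signal over background limits Spry2, Spry4 and Spred2. Irs2 lost its call in 12 of 16 alternatives, and Ets2 in 5 of 17.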
